A study of Mus musculus with 4 samples.

Results

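Loops that join the promoters of different protein-coding genes were described in H3K27ac HiChIP data of mouse embryonic stem cells. A loop here is any pair of genomic intervals, called anchors, between which ligated read pairs were counted, whether or not the count exceeded a background expectation. A loop was taken when its counts summed to at least 20 over the 4 libraries, when both anchors overlapped a transcription start site of a protein-coding gene (GENCODE M21 on the GRCm38 assembly, also called mm10), and when the anchors had no gene in common. The rule was met by 25866 of 108034 loops with at least 20 counts (23.9%). The other loops joined a promoter to a distal anchor with no start site (49952), joined 2 distal anchors (31111), or had a gene in common between the anchors (1105). Strain was not used in choosing the members, but the summed count was.

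HiChIP ligates DNA ends that lie near each other in fixed nuclei and then pulls down the fragments that carry a chosen protein or histone mark, here acetylated histone H3 at lysine 27. Each strain was represented by 2 embryonic stem cell lines with 1 library per line: B6 4-1 and B6 5-1 of C57BL/6J (B6 replicates 1 and 2), and D2 2-9 and D2 5-5 of DBA/2J (D2 replicates 1 and 2). All lines were kept in medium with 15% serum, LIF, 1 µM of the MEK inhibitor PD0325901 and 3 µM of the GSK3 inhibitor CHIR99021, and no other treatment was named. A strain is thus seen only through 2 lines, and line and strain effects cannot be told apart beyond the spread between the lines. A mark in the library names, which no label explains, reads 10cyc for D2 replicate 1 and 8cyc for the other libraries.

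H3K27ac marks active promoters and enhancers, so a pull-down of this mark favours contacts whose ends carry it. Promoters of active genes are known to cluster in the nucleus, and contacts between promoters are seen along with contacts between promoters and enhancers. Promoters of housekeeping genes in mammals usually lie in CpG islands and lack a TATA box, while many tissue-specific promoters do not lie in such islands. Embryonic stem cells are held in the pluripotent state by factors such as Pou5f1, Nanog and Sox2.

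A promoter at each end of 3 loops is printed. These loops changed between strains, and RefSeq (GRCm38.p6) held a window for the genes at each end. The Hdhd3 to Alad loop was higher in D2, the Fgfbp3 to Kif11 loop was lower in D2 at a span of 480 kb, and the Trim6 to Trim5 loop had no count in D2. The anchor of Alad also held Pole3 and 4933430I17Rik, whose windows are not printed, so its counts cannot be assigned to Alad. Each window runs from 250 bases before the gene's start to 50 bases after it and is written 5′ to 3′ on the gene's strand. Capitals mark matches on either strand to 6 motifs: the TATA box TATAAA, the CCAAT box CCAAT, the GC box GGGCGG bound by Sp and Klf factors, the palindromic motif of NRF1, the YY1 motif AAGATGGC and the ETS motif TTCCGG. No RefSeq window was held for Nefl, Nefm or 2610021A01Rik, which are named only.
Hdhd3 (chr4:62502151-62502450, minus strand): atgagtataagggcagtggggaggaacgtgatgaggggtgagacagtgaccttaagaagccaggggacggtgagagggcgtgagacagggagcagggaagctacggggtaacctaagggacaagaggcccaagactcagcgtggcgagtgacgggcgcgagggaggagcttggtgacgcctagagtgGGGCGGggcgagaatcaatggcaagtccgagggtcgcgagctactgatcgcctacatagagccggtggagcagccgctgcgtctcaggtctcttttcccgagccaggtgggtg
Alad (chr4:62520014-62520313, minus strand): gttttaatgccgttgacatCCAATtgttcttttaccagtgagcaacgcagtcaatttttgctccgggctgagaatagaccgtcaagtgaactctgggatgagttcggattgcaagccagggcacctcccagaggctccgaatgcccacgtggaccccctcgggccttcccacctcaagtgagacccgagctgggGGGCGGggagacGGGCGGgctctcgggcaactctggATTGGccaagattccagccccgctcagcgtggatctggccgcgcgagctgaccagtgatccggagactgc
Fgfbp3 (chr19:36919550-36919849, minus strand): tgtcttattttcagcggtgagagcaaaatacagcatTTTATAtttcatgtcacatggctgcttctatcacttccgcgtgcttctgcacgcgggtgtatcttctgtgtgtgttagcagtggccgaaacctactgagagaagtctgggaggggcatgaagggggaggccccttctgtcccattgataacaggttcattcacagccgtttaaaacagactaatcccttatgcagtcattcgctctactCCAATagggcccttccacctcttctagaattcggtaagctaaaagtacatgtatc
Kif11 (chr19:37376132-37376431, plus strand): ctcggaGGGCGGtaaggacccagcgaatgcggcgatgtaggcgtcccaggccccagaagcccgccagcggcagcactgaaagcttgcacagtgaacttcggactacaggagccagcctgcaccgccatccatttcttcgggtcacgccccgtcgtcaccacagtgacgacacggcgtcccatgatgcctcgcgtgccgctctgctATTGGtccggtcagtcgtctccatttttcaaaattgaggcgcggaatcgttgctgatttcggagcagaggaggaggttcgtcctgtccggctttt
Trim6 (chr7:104218545-104218844, plus strand): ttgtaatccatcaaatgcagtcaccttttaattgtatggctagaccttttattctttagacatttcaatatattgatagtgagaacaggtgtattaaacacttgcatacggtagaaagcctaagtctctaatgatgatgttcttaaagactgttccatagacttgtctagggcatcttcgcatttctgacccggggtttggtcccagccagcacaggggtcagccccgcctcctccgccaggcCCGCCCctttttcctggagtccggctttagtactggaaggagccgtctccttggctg
Trim5 (chr7:104288057-104288356, minus strand): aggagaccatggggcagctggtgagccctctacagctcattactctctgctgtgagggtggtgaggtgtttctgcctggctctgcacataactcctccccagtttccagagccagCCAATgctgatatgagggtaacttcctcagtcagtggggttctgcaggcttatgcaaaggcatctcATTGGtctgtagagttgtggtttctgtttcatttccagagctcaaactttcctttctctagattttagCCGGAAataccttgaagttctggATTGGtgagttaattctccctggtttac

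The 6 windows differed in CpG content. Kif11, which encodes a mitotic kinesin, had 28 CpG dinucleotides and a GC content of 60.7% in its window. Hdhd3 had 20 CpG and Alad, whose product makes porphobilinogen in haem synthesis, had 19. Fgfbp3 had 9, Trim6 had 8 and Trim5 had 1, with GC contents of 46.7%, 47% and 48.7%. Trim6 and Trim5 belong to the tripartite motif family, in which TRIM5 proteins of primates are known to restrict retroviruses. GC boxes were matched in the windows of Hdhd3, Alad, Kif11 and Trim6. The windows of Pole3 and 4933430I17Rik, not printed, had 17 and 19 CpG and no match to any of the motifs. The only TATAAA among the 6 windows was in Fgfbp3. A match describes the letters of the window and is not evidence of binding.

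The same windows were cut from the GRCm38 genome at the 5′ end of every autosomal protein-coding gene. Of 20722 genes, 10362 (50.0%) had a start site in an anchor of a promoter-promoter loop, and they are compared with the 10360 genes that did not. In all, 11502 genes had a start site in an anchor of a tested loop, so most of the other genes had no such anchor. Genes with an anchor but no promoter-promoter loop were not examined apart. The contrasts thus cannot be taken as particular to promoter-promoter loops. The median window of genes in these loops had 19 CpG dinucleotides, against 5 in the other genes and 12 in all genes. At least 10 CpG were found in 76.1% of the windows of genes in loops, in 32.9% of the other genes and in 54.5% of all genes. GC boxes were in 58.8% of the windows, against 28.6% in the other genes and 43.7% in all. The ETS motif was in 26.3% against 9.41% (17.8% in all), the YY1 motif in 4.30% against 1.52% (2.91% in all), and the NRF1 motif in 1.82% against 0.676% (1.25% in all). The TATA box went the other way, in 774 windows of genes in loops and 1866 of the other genes (12.7% of all). The CCAAT box hardly differed, at 38.8% against 38.3% (38.6% in all). The GC box, ETS and NRF1 motifs themselves contain a CpG, so they follow the CpG content, and no test was made across genes.

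Anchors of promoter-promoter loops were wide and busy, but the rule that chose the loops favours both. A wide anchor is more likely to overlap a start site. An anchor with many counts is more likely to have a pair that reaches the count minimum. The contrasts of width and count thus cannot be read apart from the rule. The 9114 anchors of these loops had a median width of 8.30 kb (quartiles 5.21 and 15.0 kb), against 4.48 kb for the 24951 distal anchors. Their median count over all pairs of an anchor was 693.5, against 291 for distal anchors and 232 for the 1417 promoter anchors that were in no such loop. The CpG density of the whole anchor was 18.6 per kb, against 11.3 per kb in distal anchors and 20.6 per kb in the promoter anchors that were in no such loop. Most anchors (81.3%) held 1 protein-coding gene, 270 held at least 3, and the anchor with the most held 11. In 12559 members (48.6%) each anchor held 1 gene, so that in the rest the count cannot be assigned to a particular pair of genes.

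Promoter-promoter loops spanned longer distances than the other kinds. Their median span was 158 kb (quartiles 67.6 and 337 kb, range 5.02 to 1998 kb), against 80.5 kb for loops between a promoter and a distal anchor and 44.7 kb for loops between 2 distal anchors. Spans of at least 500 kb were found in 3808 members (14.7%), against 5.26% of promoter to distal loops and 655 of the 31111 distal to distal loops. The share of tested loops that joined 2 promoters was 6.84% from 5 to 20 kb, 27.6% from 100 to 200 kb and 63.0% from 1000 to 2000 kb. Loops are not replicates, so these shares were not tested.

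Promoter-promoter loops were also stronger in raw counts at equal span. Their median count was 40 over the 4 libraries (quartiles 27 and 75), against 36 for promoter to distal and 33 for distal to distal loops. From 5 to 20 kb the medians were 71, 48 and 38 counts, and from 20 to 50 kb they were 67, 47 and 36. From 500 to 1000 kb they were 29, 27 and 26, close to the minimum of 20 that every tested loop met. With both anchors at most 10 kb wide the medians from 5 to 20 kb were 46, 36 and 32, and from 200 to 500 kb they were 22, 22 and 22. Loops with a gene in common between the anchors, left out of this order, had a median of 67 counts. Their median was 66.5 from 5 to 20 kb and 87 from 20 to 50 kb. It was 60 from 50 to 100 kb, against 51 in members, and 37.5 from 100 to 200 kb, against 41.

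Set against the anchors' own totals, the counts were in this order from 20 to 100 kb and in another order at shorter and longer spans. Per 1000 of the geometric mean of the anchors' total counts, the median from 5 to 20 kb was 100.4 in promoter-promoter, 101.1 in promoter to distal and 98.4 in distal to distal loops. From 20 to 50 kb it was 74.1, 70.7 and 66.0, and from 50 to 100 kb 48.7, 45.6 and 45.4. From 100 to 200 kb it was 35.0, 34.1 and 36.2. From 200 to 500 kb it was 22.3, 24.1 and 27.1, and from 500 to 1000 kb it was 13.4, 16.0 and 18.5. Beyond 100 kb the promoter-promoter loops thus had more counts than distal to distal loops but a smaller share of their anchors' contacts. The minimum of 20 counts removes weak loops of low-count anchors, which raises the relative value of what remains there, and its part in this order was not tested. Loops with a gene in common between the anchors had higher relative values than these kinds, at 113.8 from 5 to 20 kb and 104.0 from 20 to 50 kb.

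**Figure D1:**
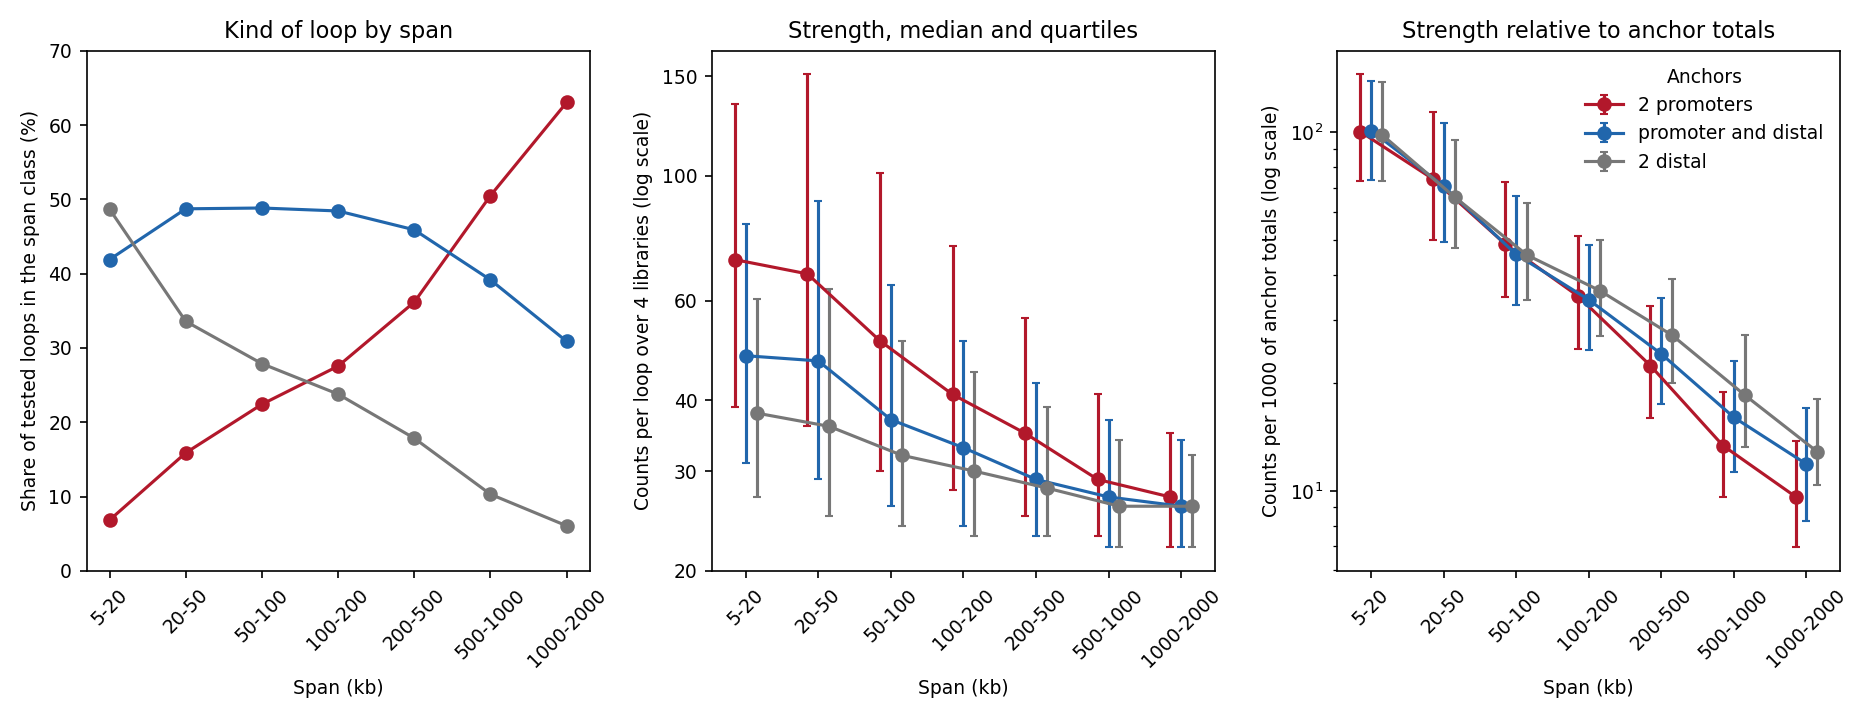
Kind of loop by span (left, percent of tested loops in each span class), counts per loop over the 4 libraries (middle, log scale) and counts per 1000 of the geometric mean of the anchor totals (right, log scale), for loops joining 2 promoters (red), a promoter and a distal anchor (blue) and 2 distal anchors (grey). Points are medians and bars run from the lower to the upper quartile over loops. The red line rises from 6.84% to 63.0% on the left, is above the others in the middle panel in each span class, and is lowest on the right from 200 kb.

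The loops with the most counts had wide anchors, and in 3 of the first 4 no other gene lay between them. The highest count belonged to the loop from Rfx2, a transcription factor of ciliated cells, to Acsbg2 and 1700061G19Rik (chr17:56807181-56847363 to chr17:56850564-56889553), with 570 and 461 counts in B6 and 812 and 592 in D2. The loop from Ghrh and Manbal to Src, the proto-oncogene tyrosine kinase, had 770 and 660 counts in B6 and 592 and 381 in D2. The loop from Ahdc1 to Wasf2, a regulator of actin assembly, had 565 and 503 counts in B6 and 486 and 424 in D2. The loop from Fignl1 to Grb10, an imprinted adaptor of growth factor receptors, passed over 1 gene and had 371 and 401 counts in B6 and 668 and 534 in D2. In these 4 loops the raw counts of the strains did not overlap, and in 41.2% of all tested loops the CPM values did not. By the quasi-likelihood test of edgeR the Benjamini-Hochberg adjusted p-values for strain were 0.497, 0.151, 0.654 and 0.193, in the order given.

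The loop with the most counts in each longer span class gives the scale at distance. From 200 to 500 kb it joined Macrod1 and Stip1 to Naa40 and Rcor2 on chromosome 19 over 215 kb, with 136, 150, 203 and 175 counts in B6 replicates 1 and 2 and D2 replicates 1 and 2. From 500 to 1000 kb it joined Kdm3b, a histone H3 lysine 9 demethylase, to an anchor with Matr3 and Paip2 over 785 kb, with 79, 44, 52 and 53 counts. From 1000 to 2000 kb it joined Zfp184 to Abt1 across 1503 kb of chromosome 13, with 61, 48, 88 and 52 counts, and 44 protein-coding genes lay between the anchors. The libraries of the strains overlapped in the Kdm3b and Zfp184 loops.

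Most members skipped genes. No protein-coding start site lay between the anchors in 5699 members, the median number of genes between them was 3, and at least 10 lay between in 5554 (21.5%). Among members of 5 to 20 kb, 93.7% had no gene between the anchors, and among those of 1000 to 2000 kb the median was 25 genes. Where each anchor held start sites of 1 strand, the genes pointed the same way in 7999 loops (52.0%), away from each other in 3894 (25.3%) and toward each other in 3488 (22.7%). The median counts of these kinds were 39, 39 and 37.

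A promoter anchor had several partners. The median was 4 partner anchors (quartiles 2 and 7), 2003 had 1 partner and 1636 had at least 10. Partners followed the width of the anchor, with medians of 2 partners below 5 kb, 3 from 5 to 10 kb, 6 from 10 to 20 kb and 9 from 20 to 40 kb. The Spearman correlation of partners with width was 0.558 across 9114 anchors, which share libraries, regions and loops. Of all pairs of partners of the same anchor, 52.1% were themselves joined by a member. Anchors with many partners give most of these pairs. The loops formed 637 connected groups of anchors, of which the largest held 271 anchors.

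The anchors with the most partners lay in a gene-dense part of chromosome 10 and were wide. The anchor of Gadd45b, a stress-induced regulator of growth arrest (chr10:80920820-80975782), had 56 partner anchors at a median span of 366 kb. The anchor with Atp5d, Cirbp and Midn (chr10:80135305-80176659) had 53. The anchor with Abhd17a and Klf16 (chr10:80567790-80609231) had 52, as many as the anchor of Rps18, Daxx and Tapbp on chromosome 17. The total counts of these 4 anchors were 1587, 1397, 1617 and 1617 at Gadd45b, 1424, 1251, 1681 and 1528 at Atp5d, 1278, 1080, 1323 and 1437 at Klf16, and 1282, 1221, 1363 and 1048 at Rps18. The libraries are B6 replicates 1 and 2 and D2 replicates 1 and 2 in that order, and the raw totals of the strains overlapped only at Rps18. These totals were not scaled to library size, and no strain difference is drawn from them.

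In lists of genes for basic cell functions, larger shares were in these loops than the 50.0% of all genes. Genes of a cluster share anchors, and the shares were not tested. Among genes with an anchor in any tested loop, 90.1% of all genes were in a member, against 91.0% to 100% in these lists. The larger shares thus mostly go with having an anchor in a tested loop of any kind. The share was 91.2% of 34 aminoacyl tRNA synthetases, 90.2% of 61 spliceosome and SR protein genes, 90.0% of 40 replication genes and 85.1% of 87 cytosolic ribosomal protein genes. It was 84.1% of 44 proteasome genes, 80.8% of 78 mitochondrial ribosomal protein genes, 79.7% of 79 histone genes and 78.0% of 91 genes of the respiratory chain and ATP synthase. Ribosomal protein genes had a median of 10 partner anchors, histone genes 11 and all genes in members 5. The anchors of ribosomal protein genes were also wider, at a median of 16.7 kb against 8.30 kb for all anchors of members, so their number of partners cannot be read apart from width. Names with a common start defined these lists, so a few genes of another function are in them, such as the lysine methyltransferase Eef1akmt4 among the translation factors.

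Several gene families had smaller shares. The share was 30.8% of 39 Hox genes, 29.8% of 57 clustered protocadherins, 17.0% of 53 keratins and 0.688% of 1454 olfactory and vomeronasal receptor genes. In that order, 12, 18, 9 and 15 genes had an anchor in a tested loop, and 12, 17, 9 and 10 were in a member. The smaller shares thus mostly go with the lack of an anchor in any tested loop. Among regulators of early lineages, 10 of 18 genes (55.6%) were in a member, with a median of 2.5 partners, and 15 of 18 had an anchor in a tested loop. The H2 genes of the major histocompatibility complex were in members in 14 of 34 cases and imprinted genes in 13 of 30. The absence of a gene says only that no promoter-promoter loop of at least 20 counts was counted at its start site.

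**Figure D2:**
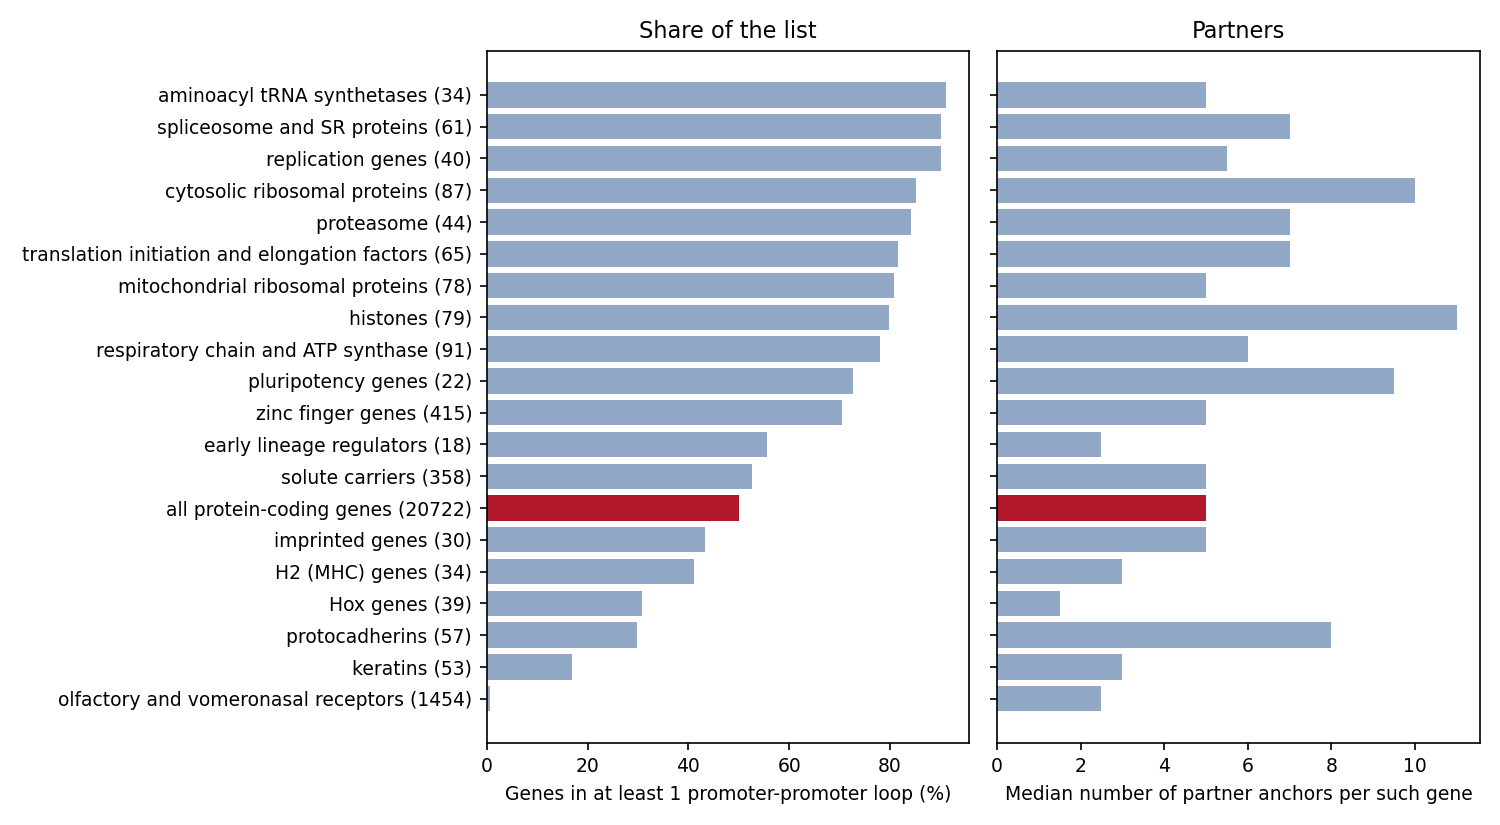
Share of the genes of each list that were in at least 1 promoter-promoter loop (left, percent, with the number of genes in the list in parentheses) and the median number of partner anchors of those genes (right). Bars start at 0 and the red bar is all 20722 autosomal protein-coding genes. The tRNA synthetases reach 91.2%, all genes 50.0% and olfactory and vomeronasal receptors 0.688%.

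Loops that joined genes of the same list were few outside gene clusters. The 290 loops joining 2 zinc finger genes had a median span of 86.7 kb, and 130 of them were on chromosome 7, 70 on chromosome 13 and 37 on chromosome 17. There were 33 loops joining 2 clustered protocadherins and 26 joining 2 histone genes. Cytosolic ribosomal protein genes, which are spread over the genome, were joined to each other in 7 loops. The one with the most counts joined the Rps28 anchor to the Rps18 anchor on chromosome 17 over 103 kb, with 287 and 260 counts in B6 and 330 and 259 in D2. In all, 547 members joined genes whose symbols had the same stem, of which 266 had the stem Zfp.

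Of the 22 autosomal pluripotency genes listed, 16 were in members. Pou5f1, the core factor Oct4, had 32 partner anchors, followed by Lin28a and Utf1 with 18 each, Sall4 with 14, Stat3 with 13, and Nanog and Tdgf1 with 12 each. Sox2 and Prdm14 had 4 each, Tbx3 had 3, Zfp42 had 2, and Gbx2 and Nr5a2 had 1. The anchors of this list had a median width of 22.5 kb, against 8.30 kb for all anchors of members. Partner numbers therefore cannot be read apart from width. The anchor of Pou5f1 was 39.5 kb wide and also held Cchcr1 and Tcf19. Klf4 had an anchor in tested loops but no promoter partner with at least 20 counts. No tested loop had an anchor over a start site of Esrrb, Klf2, Klf5, Tet2 or Tfcp2l1. The loop from Nanog to the glucose transporter gene Slc2a3 had 300 and 288 counts in B6 and 458 and 356 in D2 over 36.4 kb. The loop from Fxr1 to Sox2 spanned 620 kb with 44, 27, 73 and 41 counts, and the loop from Med13l to Tbx3 spanned 1107 kb with 8, 13, 16 and 16 counts. The Sox2 loop's strains overlapped in counts. The only loop that joined 2 genes of this list was Dppa3 to Nanog, with 41, 30, 53 and 47 counts over 76.0 kb.

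The q-value that came with each pair in each library, taken as the value of the authors' loop caller, was below 0.01 in all 4 libraries for 13846 members (53.5%). The share was 31.4% of promoter to distal loops and 18.4% of distal to distal loops. These kinds have shorter spans and were not compared at equal span, so this contrast cannot be read apart from span. Among members the share followed the span, at 34.4% from 5 to 20 kb and 30.2% from 100 to 200 kb. It was 72.5% from 200 to 500 kb and 96.1% from 500 to 1000 kb. Longer members had fewer counts, so the value is not a measure of the count alone. It was below 0.01 in both B6 libraries and neither D2 library for 302 members, and in both D2 libraries and neither B6 library for 475. These are 1.17% and 1.84% of members, against 1.62% and 1.87% of all tested loops.

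Total counts per library were 2767882 to 2944258. Members held 28.8% and 28.0% of the counts of tested loops in the B6 libraries and 30.5% and 28.2% in the D2 libraries. The means were 28.4% ± 0.501 in B6 and 29.3% ± 1.63 in D2 (SD, n = 2), and they differed by 0.946 percentage points (two-sided exact permutation p = 0.667). This is within the spread of D2, and without D2 replicate 1 the difference was -0.209. Anchors at 9 of 12 embryonic stem cell marker genes held 6057 to 8978 counts per library, the highest in D2 replicate 1. Anchors at 3 of 9 fibroblast feeder marker genes held 19 to 33 counts, with no anchor at Col1a1, Col1a2 or Col3a1. No anchor lay at the stem cell markers Esrrb, Klf2 and Tfcp2l1 either, so a missing anchor does not show which cells were present. Anchors at 8 of 8 differentiation marker genes held 422 to 516.

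The counts of members lay at slightly shorter spans in D2. The median span of a count in these loops was 90.7 and 91.1 kb in the B6 libraries and 87.1 and 88.0 kb in the D2 libraries. The means were 90.9 ± 0.267 kb in B6 and 87.5 ± 0.611 kb in D2 (SD, n = 2), and both D2 libraries lay below both B6 libraries. The difference of -3.40 kb exceeded the SD of each strain. The exact permutation p was 0.333, the smallest that 2 against 2 libraries allow. With both anchors at most 10 kb wide the difference was 0.444 kb, and with at least 50 counts it was -1.24 kb. Counts at 500 kb or more took 7.45% and 6.89% of the counts of members in B6 and 6.79% and 6.73% in D2.

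Between strains, 290 members were called at an adjusted p below 0.05, from the quasi-likelihood test of edgeR with p-values adjusted over all 108034 loops by the Benjamini-Hochberg method. This is 1.12% of members, against a background of 1.45% of all tested loops. In D2, 101 were higher (0.390%, background 0.492%) and 189 were lower (0.731%, background 0.957%). With TMM factors computed over all pairs, not only tested loops, 116 were higher and 121 lower. The strains' libraries did not overlap in 40.9% of members, against 41.2% of all tested loops. The shares are near the background, and no difference from other kinds of loop is drawn from them. The median log2 ratio of D2 over B6 was 0.07 in members and 0.02 over all tested loops. Called members had a median of 116 counts where higher and 77 where lower, with median log2 ratios of 1.28 and -1.55. The share called was 1.57% from 5 to 20 kb, 1.32% from 100 to 200 kb, 0.374% from 500 to 1000 kb and 0.441% from 1000 to 2000 kb.

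The calls depended on single libraries. Without D2 replicate 1, 14 of the 101 higher and 89 of the 189 lower members were still called, and 126 members were called in all. Without D2 replicate 2, 86 of the 101 and 78 of the 189 were still called, and 349 members were called higher and 126 lower in all. Without B6 replicate 1 the counts were 7 and 39, and without B6 replicate 2 they were 10 and 43. The direction was the same for all 290 in each of these 4 fits, with a median log2 ratio of 1.03 for the higher ones without D2 replicate 1. D2 replicate 1 lay above D2 replicate 2 in 87 of the 101 higher members, in 118 of the 189 lower ones and in 15276 of the 25576 not called. Only 3 of the higher and 17 of the lower members kept their call in all 4 fits. DESeq2's Wald test called 4 higher and 14 lower (background 0.0889% of tested loops). It gave no adjusted p for 151 of the 290 and one of at least 0.05 for 121.

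**Figure D3:**
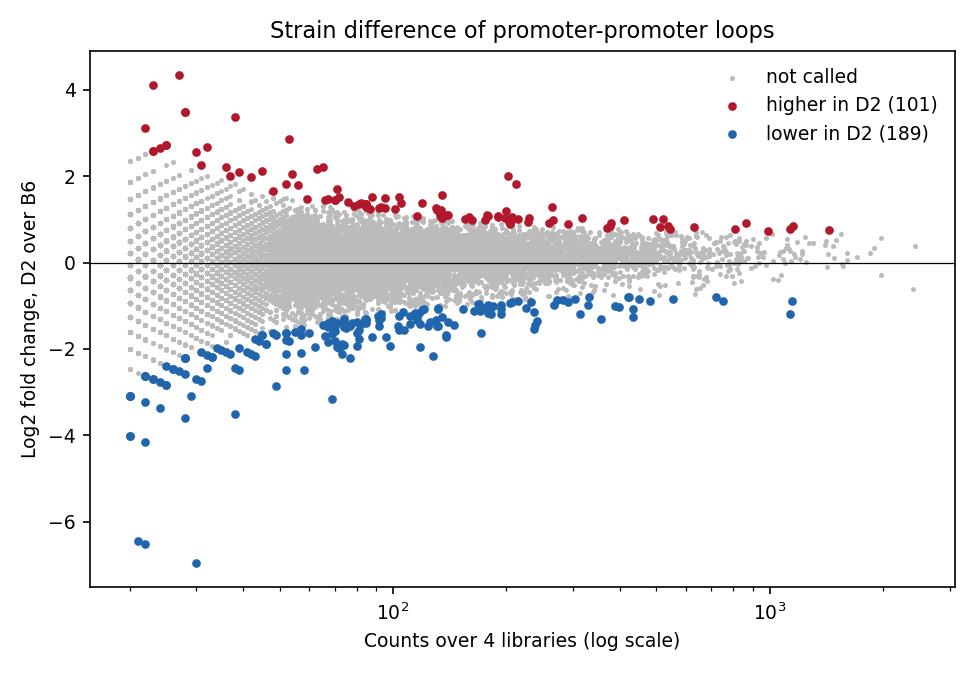
Log2 ratio of D2 over B6 of each promoter-promoter loop (vertical axis) against its counts summed over the 4 libraries (horizontal axis, log scale). Grey points were not called, red points were higher in D2 (101) and blue points were lower (189) by edgeR's quasi-likelihood test. The called points lie farther from 0 at low counts, and the 3 lowest points are loops with no count in D2, whose fitted ratio has no defined size.

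The 3 members that were higher in D2 in every fit with a library left out joined genes of different kinds. The loop from Hdhd3, a haloacid dehalogenase-like hydrolase, to the anchor of Alad, Pole3 and 4933430I17Rik (chr4:62500090-62505658 to chr4:62515940-62527548) had 21 and 18 counts in B6 and 82 and 81 in D2. The log2 ratio was 1.99 ± 0.288 (SE) with an adjusted p of 2.12e-08 by edgeR's quasi-likelihood test. Neither D2 library came near a B6 library, and the windows of Hdhd3 and Alad are the first printed above. The loop from Nefl to Nefm, which encode the light and medium neurofilament subunits (chr14:68077119-68087693 to chr14:68111561-68136890), had 29 and 16 counts in B6 and 101 and 66 in D2. The log2 ratio was 1.83 ± 0.280 with an adjusted p of 2.01e-07 by edgeR, and 0.00177 without D2 replicate 1. The loop from Ankrd24 and Gm10778 to the zinc finger gene Zfp873 on chromosome 10 spanned 398 kb, with 4 and 2 counts in B6 and 26 and 21 in D2 (edgeR adjusted p 4.76e-05).

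The other 3 named members that were higher in D2 each lost their call when a B6 library was left out. The loop from Glo1, the methylglyoxal-detoxifying glyoxalase, to Glp1r, the receptor of glucagon-like peptide 1, had 3 and 0 counts in B6 and 15 and 20 in D2. The ratio of counts was 11.1 (95% exact counting interval 3.51 to 56.6), with an edgeR adjusted p of 0.140 without B6 replicate 2. The loop from Pramef17 to Gm13128, in a cluster of related genes, had 0 and 1 counts in B6 and 16 and 10 in D2, or 24.8 times as many (interval 4.08 to 1018). Its adjusted p by edgeR was 0.163 without B6 replicate 1, and, as genes of this family can be near-identical, its value is uncertain: how the reads were placed was not tested. The loop from Purb to Ccm2 had 11 and 22 counts in B6 and 55 and 47 in D2 (log2 ratio 1.55 ± 0.313), with an edgeR adjusted p of 0.343 without B6 replicate 1. Such intervals cover counting error only.

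The 6 named members that were lower in D2 were called in each fit with a library left out. The loop from Gm6871 to 2610021A01Rik on chromosome 7 had 30 and 32 counts in B6 and 1 and 6 in D2 (log2 ratio -3.17 ± 0.472, edgeR adjusted p 7.26e-08). The loop from Fgfbp3 to Kif11 (chr19:36909089-36921397 to chr19:37369408-37420337) passed over 4 genes, with 42 and 62 counts in B6 and 10 and 14 in D2. The log2 ratio was -2.17 ± 0.332 with an adjusted p of 1.63e-07 by edgeR. The loop from Rps7, a ribosomal protein gene, to Rnaseh1, whose product removes RNA from RNA-DNA hybrids, had 97 and 77 counts in B6 and 43 and 19 in D2 (log2 ratio -1.55 ± 0.265, edgeR adjusted p 6.84e-06). In all these loops both D2 libraries lay below both B6 libraries, which the naming rule required.

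The Trim6 to Trim5 loop (chr7:104212945-104233181 to chr7:104285806-104292251) had 18 and 12 counts in B6 and 0 and 0 in D2. With a floor of 3 counts over the D2 libraries it was at least 10.5-fold lower in D2 (edgeR adjusted p 1.41e-06). The anchor of Trim5 had 65 and 59 counts over all its pairs in B6 and 0 and 0 in D2, while that of Trim6 had 162 and 155 in B6 and 106 and 85 in D2. The loss of counts at the Trim5 anchor thus covered every contact of it in the table. The reference assembly is that of C57BL/6J, and whether D2 reads can be mapped at this anchor was not tested. The other members with no D2 counts were Gm14409 to Gm14412, with 11 and 11 in B6 (at least 7.68-fold lower), and Tmc5 to Vps35l, with 12 and 9 (at least 7.33-fold lower), both named after their values were seen.

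**Figure D4:**
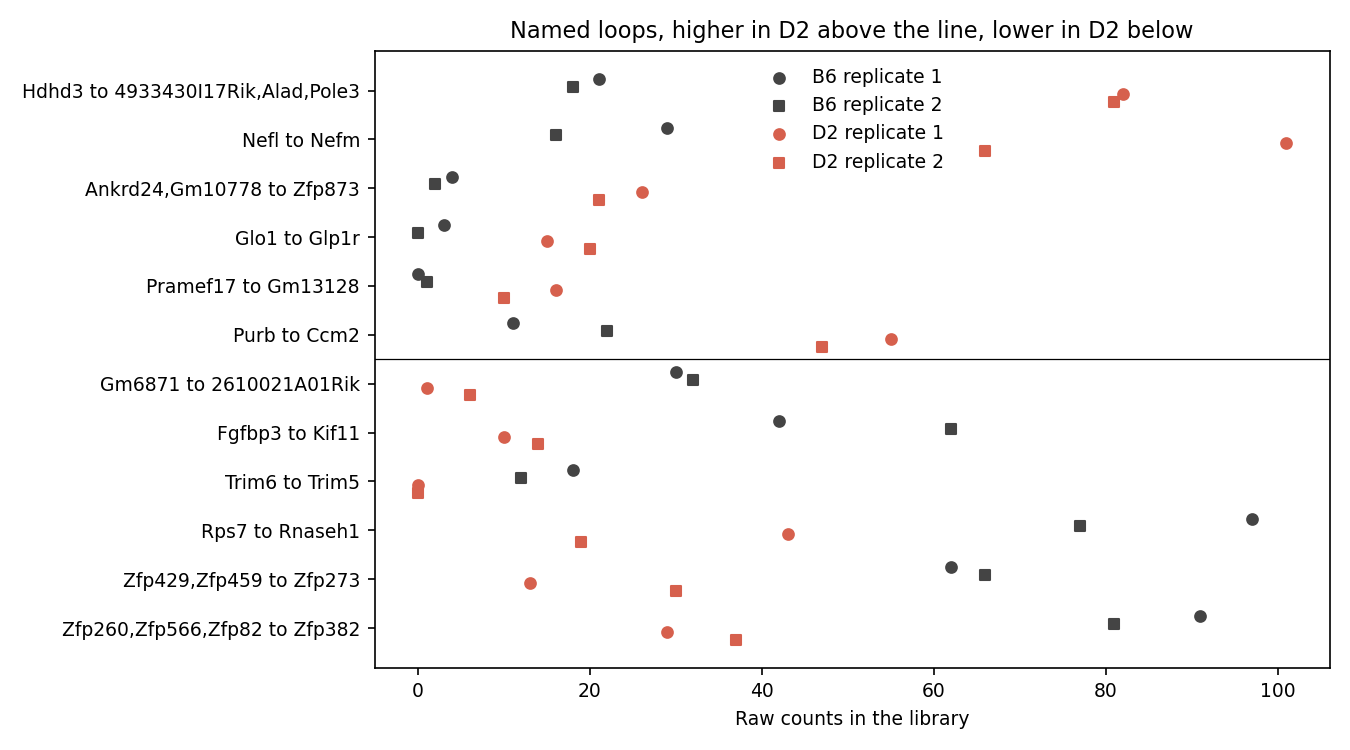
Raw counts in each library (horizontal axis) of the 12 named loops that were called between the strains, those higher in D2 above the line and those lower below it. Black symbols are B6 and red symbols D2, circles are replicate 1 and squares replicate 2. In each loop both symbols of a strain lie on the same side of both symbols of the other. The loops were chosen by a rule that required strains not to overlap. Trim6 to Trim5 has both D2 symbols at 0.

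Loops between zinc finger genes held many of the calls lower in D2. Most of these genes encode KRAB zinc finger proteins, known to silence transposable elements, and genes of such clusters can be near-identical. Their single counts are given as uncertain, and how reads were shared among copies was not tested. Of the 290 loops joining 2 of them, 23 were called lower and 2 higher (8.62%, against a background of 1.45% of tested loops), with a median log2 ratio of -0.06 against 0.02. Without D2 replicate 1 the counts were 11 and 0. With TMM factors over all pairs of the table they were 18 and 2, and the median was 0.01. The 23 comprised 12 on chromosome 7, 10 on chromosome 13 and 1 on chromosome 4. The median log2 ratio of such loops was -0.77 on chromosome 13, 0.06 on chromosome 7 and 0.51 on chromosome 17. The loop from Zfp429 and Zfp459 to Zfp273 over 382 kb had 62 and 66 counts in B6 and 13 and 30 in D2 (log2 ratio -1.64 ± 0.289, edgeR adjusted p 1.67e-05). The loop from Zfp260, Zfp566 and Zfp82 to Zfp382 over 33.2 kb had 91 and 81 counts in B6 and 29 and 37 in D2 (log2 ratio -1.44 ± 0.262, edgeR adjusted p 3.42e-05).

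Calls shared anchors, so they are not separate events. The anchor of Zfp273 was in 8 loops lower in D2 of its 18 members, and its total was 745 and 757 counts in B6 and 314 and 310 in D2. Btn2a2, a butyrophilin gene beside the histone cluster of chromosome 13, was in 7 of 11, with totals of 1027, 1150, 510 and 444. The anchor with Cox7a1, a subunit of cytochrome c oxidase, was in 6 of 25, with totals of 1377, 1158, 735 and 615. These 6 loops made up most of the 9 called loops of respiratory chain and ATP synthase genes, all lower. Of the anchors with higher loops, that of Ube2l6 was in 3 of 16, with totals of 777, 709, 1369 and 968, of which the highest was D2 replicate 1. The anchors in this paragraph were chosen after their values were seen.

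Many called loops lay at anchors whose other loops differed the same way. Among the 189 members lower in D2, the other counts of both anchors lay beyond a log2 ratio of -0.50 in 90 (47.6%), those of 1 anchor in 80 and those of neither in 19. Among the 101 higher members the numbers were 21 (20.8%), 36 and 44. For 25576 members not called, both anchors lay beyond 0.50 in the loop's own direction in 0.907%. The Purb to Ccm2 loop was an example with less change at its anchors, whose other counts had log2 ratios of 0.44 and 0.41 beside 1.55 for the loop. The Pramef17 anchor had a log2 ratio of -0.33 in its other loops. A change of the H3K27ac pull-down at an anchor and a change of contact cannot be told apart in these counts.

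In the lists of basic cell function genes the share of loops called lay on both sides of the background of 1.45%, and the counts behind each share are small. Of 869 loops with a cytosolic ribosomal protein gene, 4 were higher and 6 lower (1.15%), and of 520 with a mitochondrial ribosomal protein gene 3 were higher and 1 lower. Of 473 with a spliceosome gene 3 were higher and 1 lower, and of 285 with a proteasome gene 1 was higher and 1 lower. Of 549 with a translation factor gene 3 were higher and 4 lower (1.28%), and of 296 with a replication gene 3 were higher and 2 lower (1.69%). Of 227 loops with an aminoacyl tRNA synthetase gene, 0 were called by edgeR or DESeq2 and 18 had an unadjusted edgeR p under 0.05. Of 182 loops with a histone gene 2 were higher and 4 lower (3.30%), and without D2 replicate 1 these were 0 and 3. The 2 higher ones joined histone genes to each other, and the stronger of these, between the anchors of Hist1h4j and Hist1h4k, had 75, 105, 204 and 128 counts (edgeR adjusted p 0.0283, and 0.628 without D2 replicate 1).

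Of 159 loops with a pluripotency gene, 2 were higher and 5 lower in D2 (4.40%, background 1.45%), and without D2 replicate 1 none was higher and 1 was lower. Lin28a, an RNA-binding inhibitor of let-7 maturation, was in 4 of the lower loops, named here after their values were seen. Its loop with Arid1a, a subunit of the BAF remodelling complex, had 38 and 39 counts in B6 and 13 and 8 in D2 (log2 ratio -1.93 ± 0.358, edgeR adjusted p 5.68e-05, and 0.000486 without D2 replicate 1). Its loops with Crybg2, Slc30a2 and Hmgn2 had 45, 55, 16 and 24 counts, 26, 16, 4 and 6 counts, and 42, 30, 13 and 21 counts in the same library order, and these 3 were not called without D2 replicate 1. The loop from Pou5f1 to 2300002M23Rik had 78 and 101 counts in B6 and 51 and 52 in D2 (log2 ratio -0.86, edgeR adjusted p 0.0364, and 0.0755 without D2 replicate 1). The higher ones were Nanog to Foxj2, with 89, 97, 215 and 136 counts (log2 ratio 0.85, edgeR adjusted p 0.0184), and Gsta4 to the Dppa5a anchor, with 50, 49, 117 and 76 (0.90, edgeR adjusted p 0.0257). Both had their highest count in D2 replicate 1 and adjusted p-values of 0.553 and 0.601 without it.

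Called members were uneven along the genome, beside a background of 1.45% called of all tested loops. Calls of the other kinds of loop were not counted by chromosome or window. The unevenness thus cannot be taken as particular to promoter-promoter loops. Chromosome 4 had 6 higher and 42 lower of 2014 members (2.38%), chromosome 7 had 6 and 41 of 2937 (1.60%), and chromosome 13 had 6 and 22 of 544 (5.15%). Chromosome 10 had 5 higher and none lower of 1668 (0.300%). Without D2 replicate 1 the numbers lower were 24, 27 and 14 on chromosomes 4, 7 and 13 and 0 on chromosome 10. In windows of 10 Mb, the stretch from 130 to 140 Mb of chromosome 4 held 19 lower and 2 higher of 604 members (3.48%). The stretch from 60 to 70 Mb of chromosome 13 held 13 and 1 of 108 (13.0%), and the stretch from 140 to 150 Mb of chromosome 4 held 13 and 1 of 235 (5.96%). Without D2 replicate 1 the numbers lower in these windows were 11, 8 and 6. Of 247 windows with members, 142 had no call. The Lin28a loops lay in the first of these windows and the Zfp273 loops in the second, so the paragraphs on genes and on chromosomes count the same loops.

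**Figure D5:**
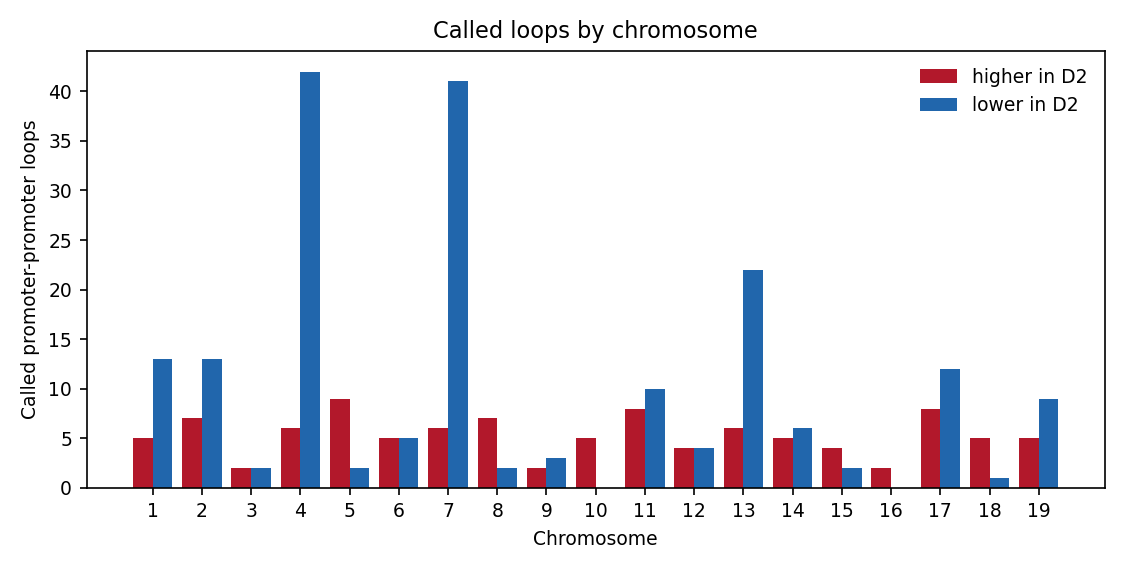
Number of promoter-promoter loops called higher (red) and lower (blue) in D2 on each autosome by edgeR's quasi-likelihood test. Chromosomes 4, 7 and 13 have 42, 41 and 22 lower loops, and chromosome 10 has 5 higher and no lower ones.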

How the data were processed

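H3K27ac HiChIP of 2 B6 and 2 D2 embryonic stem cell lines was analysed from the deposited raw counts per pair of anchors, given without normalization. The submitters' processing notes list HiC-Pro 2.11.4, mm10 and DESeq2, and the labels give paired reads of 75 bp. A second deposited value per library and pair, between 0 and 1, was read as the authors' q-value; nothing in the sources used here states its meaning. The deposited distance between anchors gave the span. Counts were tested with edgeR 4.0.16 (limma 3.58.1, R 4.3.3): quasi-likelihood, TMM, strain as the only term, over loops with at least 20 counts, with Benjamini-Hochberg adjustment over all of them. A loop was called at an adjusted p under 0.05. DESeq2 1.42.0, other factors and minimums, narrower anchors and each library left out were alternatives; leaving out 1 library leaves 1 in that strain, assumed to vary like the other strain's. The code was tested on simulated data. Depth was 2767882 to 2944258 counts, which limits weak loops most.

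The same replicate numbers occur in both strains but name different lines; the deviations of same-numbered libraries correlated at -0.0017, so they were not paired. D2 reads were counted on the reference of C57BL/6J, and the effect on D2 counts was not tested. Members and gene lists were chosen with earlier results of these data known. Named loops were the 6 with the most counts and in each direction the 6 of smallest adjusted p whose strains did not overlap (none sharing an anchor), the strongest loop of each span class, list and pluripotency gene, and the 3 anchors with the most partners. Some of the loops so named are not described. Only autosomes were analysed here. RefSeq held promoter windows for 8083 of 10349 gene symbols in members.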

Additional observations from a re-analysis of the deposited data

How the results depend on the processing

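The number of members called between strains, 290 with all libraries, was 46 to 475 when a library was left out, 18 by DESeq2, 189 with no count minimum (136 higher and 53 lower) and 11 of 2906 with both anchors at most 10 kb wide. With TMM factors over all pairs, not only tested loops, 237 were called, 116 higher and 121 lower, so the share lower went from 65.2% to an even split. It was 286 with RLE factors, 243 with at least 50 counts and 246 with 1 start site per gene. The calls over all kinds of loop moved as well, so these shifts are not particular to members. They were 1565 in the main fit, 96 by DESeq2, 759 with no minimum and 1338 with TMM factors over all pairs. With the replicate number as a block 244 were called, 82 higher and 162 lower, all among the 290; the numbers do not pair lines. The shorter span in D2, -3.40 kb, was -11.3 kb with no minimum, -1.24 kb with at least 50 counts and 0.444 kb with narrow anchors. The number of members was 10371 with at least 50 counts and 2906 with narrow anchors. The cause of these shifts was not tested. Of 55 named loops, 14 were called and kept their direction under each alternative run, and 12 uncalled ones changed sign under at least 1. DESeq2 called 6 of the 14, did not call 3 and gave no adjusted p for 5. There were 2196 members at 20 or 21 counts and 2597 pairs of promoters just below the minimum, at 18 or 19, with median spans of 276 and 288 kb. Members with few counts limit most statements on long loops.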
